A study of Mus musculus with 12 samples.

Results

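Integrins and laminins are receptors and ligands by which cells attach to the extracellular matrix. The tables list 38 genes of these families among 45563 gene symbols, chosen by symbol alone: 27 integrin genes (α chains, β chains and the β-like *Itgbl1*) and 11 laminin chain genes. An integrin is a membrane heterodimer of 1 α and 1 β chain, and the α chain largely sets which ligand is bound. A laminin is a secreted trimer of an α, a β and a γ chain that is laid down in basement membranes. In the oligodendrocyte lineage, the laminin receptor α6β1 is known for its part in survival and myelination, and αv integrins for parts in proliferation and differentiation.

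The RNA came from primary cultures of oligodendrocyte precursor cells (OPCs), isolated with anti-PDGFRα beads from cortices of C57BL/6 (C57BL/6J in the methods) wild-type (WT) pups or of pups with a germline deletion of TNFR2 (TNFR2-/-), 2 to 5 days of age by the labels. All cultures were grown on poly-d-lysine and laminin with PDGF-AA and FGF2, so the substrate itself was a ligand of several of these receptors. At 3 days *in vitro*, cells received TNF, IFNγ and IL1β at 25 ng/mL each for 3 h (St) or PBS vehicle (NS). The 4 groups, WT NS, WT St, TNFR2-/- NS and TNFR2-/- St, have 3 libraries each, from cultures numbered 2, 3 and 4 for WT and 2, 4 and 5 for TNFR2-/-. Reads recovered on genes numbered 26412731 to 29712717 per library. Levels are given as reads per 1000000 recovered reads of the library (rpm), and where genes are set against each other, as rpm per kb of annotated exon.

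Markers of OPCs summed to 6670 to 9440 rpm in every library, with lower sums in St (6670 to 7960 rpm) than in NS libraries (8130 to 9440 rpm). *Pdgfra*, *Cspg4*, *Olig1*, *Olig2*, *Gpr17* and *Nkx2-2* were lower after stimulation in every culture. *Sox10* was higher in every culture (196 to 337 rpm in NS and 268 to 397 rpm in St). *Ptprz1* was lower in the WT cultures and higher in the TNFR2-/- cultures. Of 10 microglial markers, 4 (*Cx3cr1*, *Aif1*, *Ptprc* and *C1qa*) had at most 3 reads in any library, and the sum of 15.4 to 22.3 rpm included the lysosomal gene *Cd68* at 4.24 to 11.8 rpm. All 7 astrocyte markers were detected, and they summed to 848 to 996 rpm in WT and 1290 to 2710 rpm in TNFR2-/- libraries, with culture 5 highest. Of 10 mural and fibroblast markers, *Abcc9* had at most 3 reads, and the sum of 77.8 to 889 rpm was carried by *Acta2*. The 5 neuronal markers summed to 98.4 to 126 rpm in NS and 436 to 555 rpm in St libraries, a rise carried by *Tubb3* (39.2 to 72.3 rpm in NS and 391 to 507 rpm in St). *Stmn2* (5.07 to 15.2 rpm in NS and 9.39 to 19.1 rpm in St) and *Syt1* (3 to 9.18 rpm and 5.01 to 10.1 rpm) were also higher after stimulation in every culture. *Snap25* was lower in St (16.9 to 24.3 rpm) than in NS libraries (29.8 to 58.9 rpm), and *Rbfox3* was at 1.25 to 3.23 rpm in NS and 1.46 to 3.81 rpm in St. The 7 mature oligodendrocyte markers summed to 543 to 1330 rpm in NS and 576 to 1120 rpm in St libraries. Their sum differed between cultures, with 1040, 698 and 543 rpm in WT NS 2, 3 and 4. *Gpr17*, of the OPC list, was at 1230 rpm in TNFR2-/- NS 5 and 269 to 430 rpm in the other NS libraries. The part of these other cell types, or of differentiation state, in the responses below was not tested. Fewer cells of a type and less RNA per cell cannot be told apart in such bulk samples. *Tnfrsf1b*, which encodes TNFR2, was counted at 12 to 24 reads per WT NS library and 61 to 145 per WT St library, but at 213 to 346 (NS) and 282 to 356 (St) where the label was TNFR2-/-. The value sums all exons of the gene and does not show whether the disrupted part is transcribed, so directions between genotypes rest on the labels, and TNFR2-/- stands below for libraries labelled so.

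WT culture 3 was often the lowest: of the 27 members with a mean of at least 1 FPKM, its NS library was the lowest of its group for 20 and its St library for 19. The same count was not made over all genes, so it is not known whether this is particular to these families. The median difference of these members from the other WT cultures was −0.46 and −0.49 on the log2 scale.

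Per kb of exon, the most abundant member was *Itgb1*, the β chain shared by most matrix-binding α chains, at 261 ± 6.92 rpm per kb in WT NS (SD, n = 3). *Lamc1*, the γ chain of most laminins, and *Itgav*, the αv chain, followed at 58.7 ± 7.36 and 46.1 ± 4.25 rpm per kb, and these neighbors overlapped between libraries. The β chains that pair with αv came next, *Itgb8* at 35 ± 1.75 and *Itgb5* at 26.4 ± 11.9 rpm per kb. *Itga6*, the α chain of the laminin receptor, had 16.5 ± 3.54 rpm per kb, and *Lamb2*, *Itga5*, *Itga7* and *Lama5* lay between 6.88 and 8.76 rpm per kb, within their spread of each other.

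At the other end, 7 members were below the filter of a mean of 0.1 FPKM and were not tested. These were the collagen receptor chain *Itga2*, the leukocyte chains *Itgam*, *Itgax*, *Itgad* and *Itgb2*, the epithelial *Itgb6* and the laminin chain *Lamc3*. *Itga2* had 5 to 27 reads per library. *Itgam* (CD11b), *Itgb2* (CD18) and *Itgax* (CD11c), which mark microglia and other myeloid cells, had at most 4, 3 and 2 reads in any library. *Itgad*, *Itgb6* and *Lamc3* had at most 1, 1 and 4 reads. The leukocyte α chain *Itgal* passed this filter with 0 to 5 reads, and its values are not read further. *Itgae*, the α chain of αEβ7, was at 0.379 to 0.747 rpm and was called in no comparison.

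**Figure D1:**
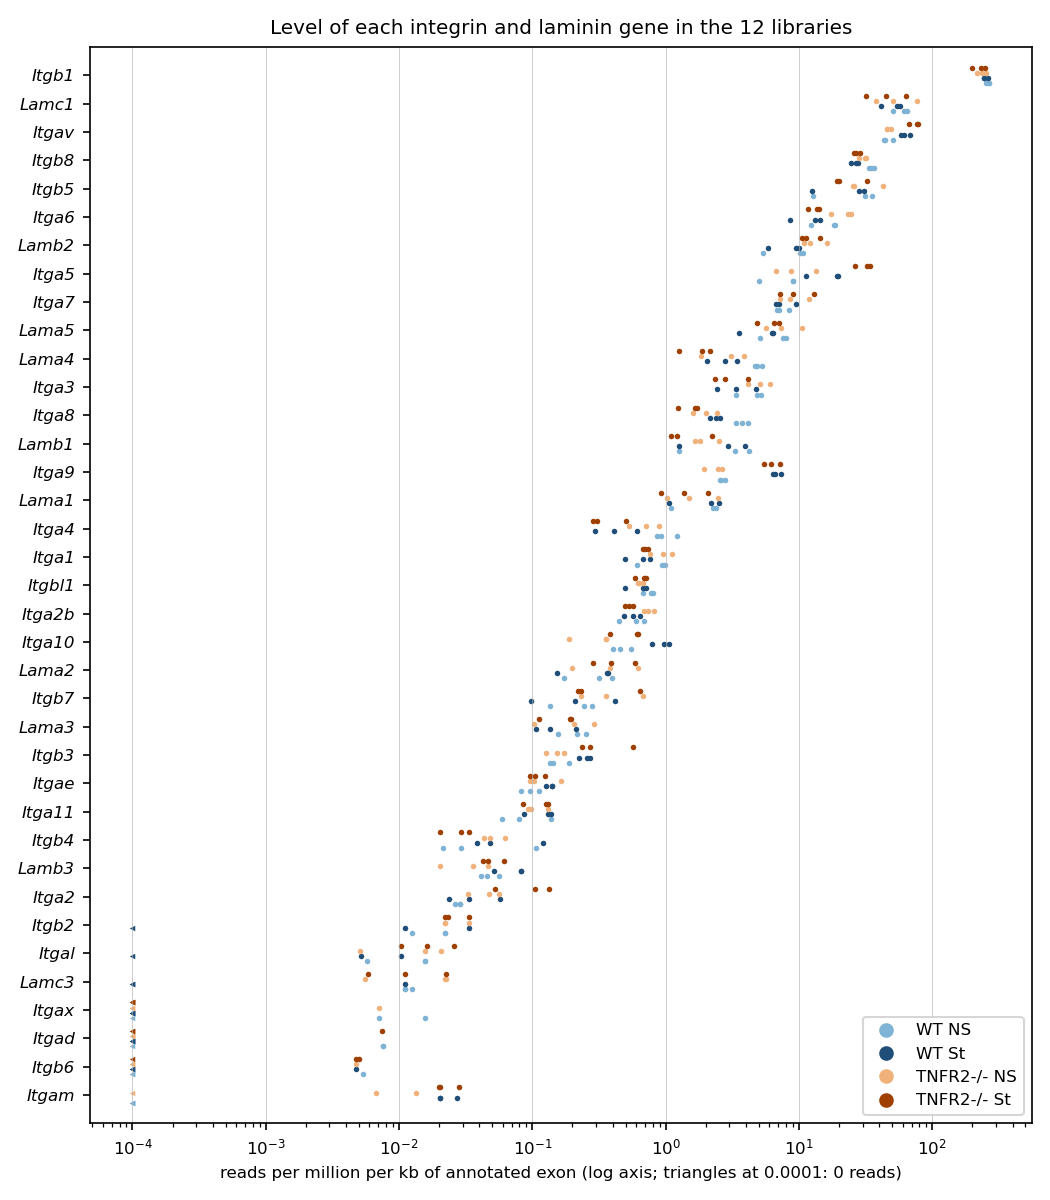
Level of the integrin and laminin genes reported in each of the 12 libraries, in rpm per kb of annotated exon on a log axis, 1 point per library, colored by group; triangles at 0.0001 stand for 0 reads. *Itgb1* is at the top, with group means of 227 to 261 rpm per kb, and the leukocyte genes *Itgam*, *Itgax*, *Itgad* and *Itgb2* are at the bottom.

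After cytokine stimulation, the genes called were α chains and, in TNFR2-/- OPCs, 1 β chain. In WT OPCs, 3 of 31 tested members rose (*Itga9*, *Itga5* and *Itga10*) and 2 fell (*Itga4* and *Itga8*), a share of 9.68% and 6.45%. Of all 18081 genes tested, 4.58% were called higher and 2.95% lower in this comparison. In TNFR2-/- OPCs, 4 members rose (*Itga5*, *Itga9*, *Itgb3* and *Itgav*) and 2 fell (*Itga4* and *Itga6*), where 5.41% of all genes were called higher and 4.68% lower. A gene was called where limma gave an adjusted p no higher than 0.05, the fold was 1.5 or more in either direction and its mean reached 1 FPKM. The median log2 fold change of the tested members was −0.027 in WT and −0.13 in TNFR2-/-, beside −0.055 and −0.109 over all genes. With libraries scaled by median-of-ratios factors the calls were 3 higher and 1 lower in WT and 5 higher and 0 lower in TNFR2-/-.

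**Figure D2:**
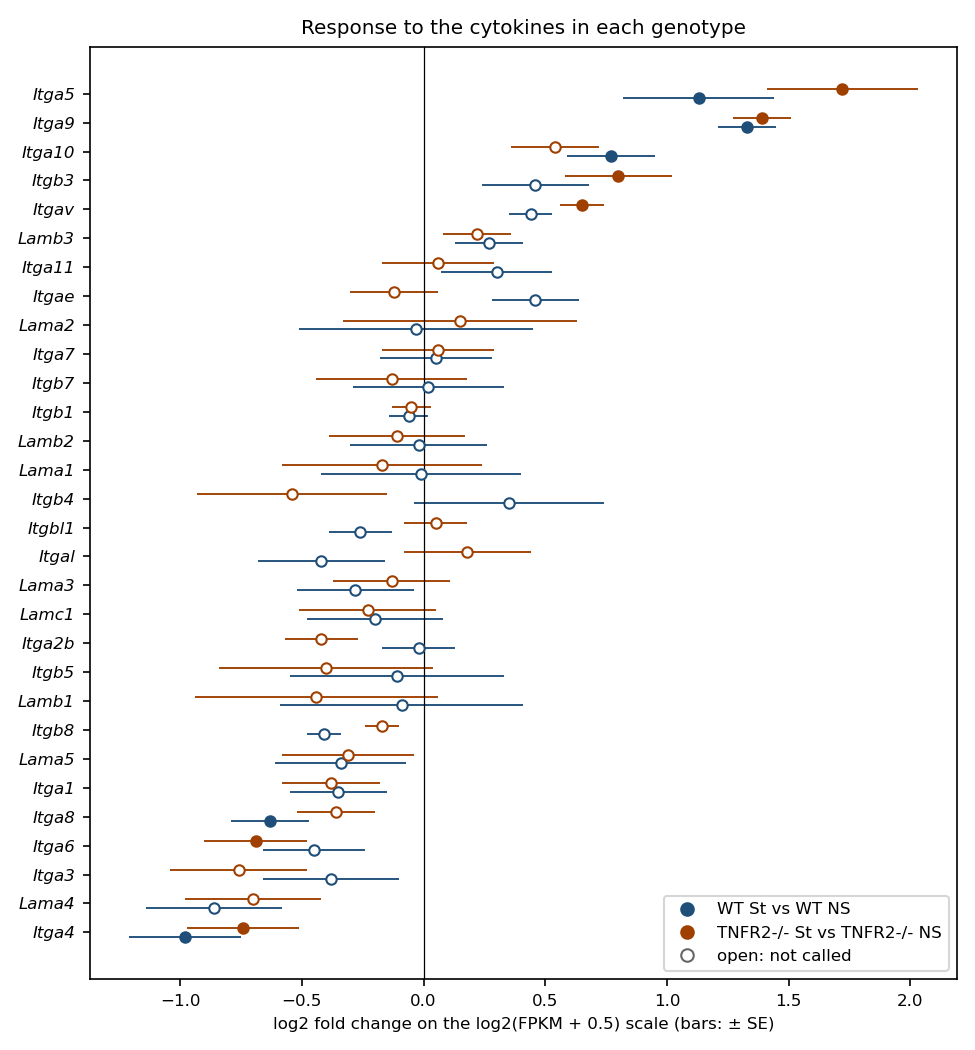
Log2 fold change of St over NS for the tested members reported in WT (blue) and TNFR2-/- (brown) OPCs, on the log2(FPKM + 0.5) scale, with SE bars from limma; filled points were called. *Itga5* and *Itga9* lie above 1 in both genotypes, and *Itgb1* lies at −0.06 and −0.05.

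The promoters of called members are shown because these genes moved within 3 h of cytokine exposure. RefSeq promoter sequences (GRCm38.p6) were matched for 24 of the 38 members, with *Itga6* and *Itgb3* not among them. The 250 bases before the start are printed 5′ to 3′ on the gene's strand for those called members whose start lies within 28 bases of the annotated gene start, which leaves out *Itga9*. Capitals mark matches, on either strand, to a GAS element (TTCNNNGAA), an ISRE (GAAA, any 2 bases and GAAA again), an AP-1 site (TGANTCA), an NF-κB site or a GC box (GGGCGG).
*Itga5*, chr15:103366792-103367041, minus strand: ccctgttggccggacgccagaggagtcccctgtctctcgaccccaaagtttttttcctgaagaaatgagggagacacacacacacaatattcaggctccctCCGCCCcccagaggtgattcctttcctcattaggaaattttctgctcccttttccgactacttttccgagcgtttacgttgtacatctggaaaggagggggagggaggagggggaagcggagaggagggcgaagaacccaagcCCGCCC
*Itgav*, chr2:83724147-83724396, plus strand: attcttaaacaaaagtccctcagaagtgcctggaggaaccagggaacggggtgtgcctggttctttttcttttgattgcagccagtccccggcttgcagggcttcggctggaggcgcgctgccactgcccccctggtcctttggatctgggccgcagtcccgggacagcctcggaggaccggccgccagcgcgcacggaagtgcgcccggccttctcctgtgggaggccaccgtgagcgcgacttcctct
*Itga10*, chr3:96645334-96645583, plus strand: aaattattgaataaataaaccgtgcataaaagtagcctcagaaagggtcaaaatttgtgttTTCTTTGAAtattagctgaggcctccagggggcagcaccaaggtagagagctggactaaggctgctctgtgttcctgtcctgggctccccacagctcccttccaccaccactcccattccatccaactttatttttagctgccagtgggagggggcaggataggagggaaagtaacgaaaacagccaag
*Itga4*, chr2:79255176-79255425, plus strand: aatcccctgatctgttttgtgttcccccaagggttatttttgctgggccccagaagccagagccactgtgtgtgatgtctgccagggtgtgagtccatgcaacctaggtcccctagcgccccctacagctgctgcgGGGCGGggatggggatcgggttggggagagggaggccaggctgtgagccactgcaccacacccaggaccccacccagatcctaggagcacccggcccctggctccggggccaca
*Itga8*, chr2:12301945-12302194, minus strand: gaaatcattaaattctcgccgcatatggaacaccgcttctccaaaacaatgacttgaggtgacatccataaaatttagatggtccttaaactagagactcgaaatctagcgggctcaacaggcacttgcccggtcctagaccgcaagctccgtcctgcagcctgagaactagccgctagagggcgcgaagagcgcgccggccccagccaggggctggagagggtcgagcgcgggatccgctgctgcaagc
The only match to the cytokine-related motifs was 1 GAS element in *Itga10*, whose first base lies 189 bases before the start. *Itga5* held 2 GC boxes and *Itga4* 1, and *Itgav* and *Itga8* held none of the motifs. Over 32851 promoters of this length, 7.02% held a GAS element, 2.98% an ISRE, 6.75% an AP-1 site, 3.9% an NF-κB site and 32.7% a GC box.

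Among the α chains that bind the RGD sequence of fibronectin and vitronectin, *Itga5*, the fibronectin receptor chain (chr15:103344286-103366763), had the largest response. Its level was 44.2, 24.8 and 44.3 rpm in WT NS cultures 2, 3 and 4 and 97.1, 55.7 and 95.4 rpm in the same cultures after stimulation. In TNFR2-/- cultures 2, 4 and 5 it went from 66.4, 43.2 and 33.4 to 160, 129 and 169 rpm. All St libraries exceeded all NS libraries of their genotype, and the NS order of the TNFR2-/- cultures was not kept. The log2 fold change was 1.13 ± 0.31 (SE) in WT (limma adjusted p = 0.0294) and 1.72 ± 0.31 in TNFR2-/- (limma adjusted p = 0.00218). The call in TNFR2-/- held in all 21 alternatives run, with adjusted p at most 0.00938, whereas that in WT was lost without WT NS 3, WT St 2 or WT St 4 (limma adjusted p = 0.105 to 0.107), with no filter on low values (limma adjusted p = 0.0603) and in a fit over the 6 libraries compared (limma adjusted p = 0.0519). The responses of the genotypes differed by 0.59 ± 0.43 and the difference did not pass the test (limma interaction adjusted p = 0.788).

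*Itgav* (chr2:83724397-83806916), the α chain of the vitronectin receptors, moved less but with little spread. It rose from 490, 495 and 523 rpm to 715, 819 and 840 rpm in TNFR2-/- cultures 2, 4 and 5, a log2 fold change of 0.65 ± 0.09 (limma adjusted p = 0.000341), in all 21 alternatives. In WT cultures it was at 548, 475 and 463 rpm without and at 737, 658 and 625 rpm with cytokines. The WT difference of 0.44 ± 0.09 passed the p threshold (limma adjusted p = 0.00543) but not the fold threshold, and the interaction was 0.21 ± 0.12 (limma adjusted p = 0.732). All 3 cultures of each genotype moved up, and neither comparison had overlapping groups.

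*Itga8* (chr2:12106632-12301922), which pairs with β1 and binds nephronectin, went the other way. In WT NS it was at 24.7, 30.5 and 27.4 rpm, and in WT St at 18.9, 17.5 and 15.9 rpm. The fall in WT was −0.63 ± 0.16 (limma adjusted p = 0.0219), and the groups did not overlap. The call was lost without WT NS 3, WT NS 4, WT St 3 or WT St 4 (limma adjusted p = 0.0576 to 0.0851), and on the fold threshold with median-of-ratios scaling and with voom (−0.58 in each). In TNFR2-/- the levels were 17.9, 14.8 and 11.9 rpm in NS and 12.7, 12.3 and 9.06 rpm in St cultures, a difference of −0.36 ± 0.16 (limma adjusted p = 0.127). Each TNFR2-/- culture was lower after stimulation, and the interaction of 0.27 ± 0.23 did not pass (limma adjusted p = 0.838). *Itga2b*, the platelet chain, was at 2.42 to 4.45 rpm and was called in neither genotype.

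The closely related chains *Itga4* and *Itga9*, both receptors of VCAM-1, moved in opposite directions. *Itga9* (chr9:118606690-118901003) rose from 20.1, 19.7 and 21.4 rpm to 49, 50.9 and 56.6 rpm in WT cultures 2, 3 and 4. It rose from 15, 19 and 20.5 rpm to 42.3, 47.6 and 55.3 rpm in TNFR2-/- cultures 2, 4 and 5. The 6 cultures rose by 1.27 to 1.47 on the log2 scale. The log2 fold change was 1.33 ± 0.12 in WT (limma adjusted p = 3.21e-05) and 1.39 ± 0.12 in TNFR2-/- (limma adjusted p = 1.73e-05), and both calls held in all 21 alternatives. The interaction was 0.06 ± 0.18 (limma adjusted p = 0.974).

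*Itga4* (chr2:79255426-79333123) was at 17.1, 13 and 12 rpm in WT NS and 8.46, 5.69 and 4.16 rpm in WT St. In TNFR2-/- it was at 12.5, 10 and 7.47 rpm in NS and 4.29, 7.05 and 4.01 rpm in St libraries. Groups did not overlap in either genotype. The fall was −0.98 ± 0.23 in WT (limma adjusted p = 0.0157) and −0.74 ± 0.23 in TNFR2-/- (limma adjusted p = 0.0401). The WT call was lost without WT NS 2 or WT St 4 (limma adjusted p = 0.0654 and 0.0659). That in TNFR2-/- was lost without any 1 of WT NS 3, WT NS 4, WT St 3, TNFR2-/- NS 2, TNFR2-/- NS 4, TNFR2-/- St 2 and TNFR2-/- St 5 (limma adjusted p = 0.0517 to 0.132) or without WT culture 3. It was also lost with median-of-ratios scaling, voom, no filter on low values and a fit over the 6 libraries compared (adjusted p = 0.0624 to 0.0841), and held in 9 of 21 alternatives.

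**Figure D3:**
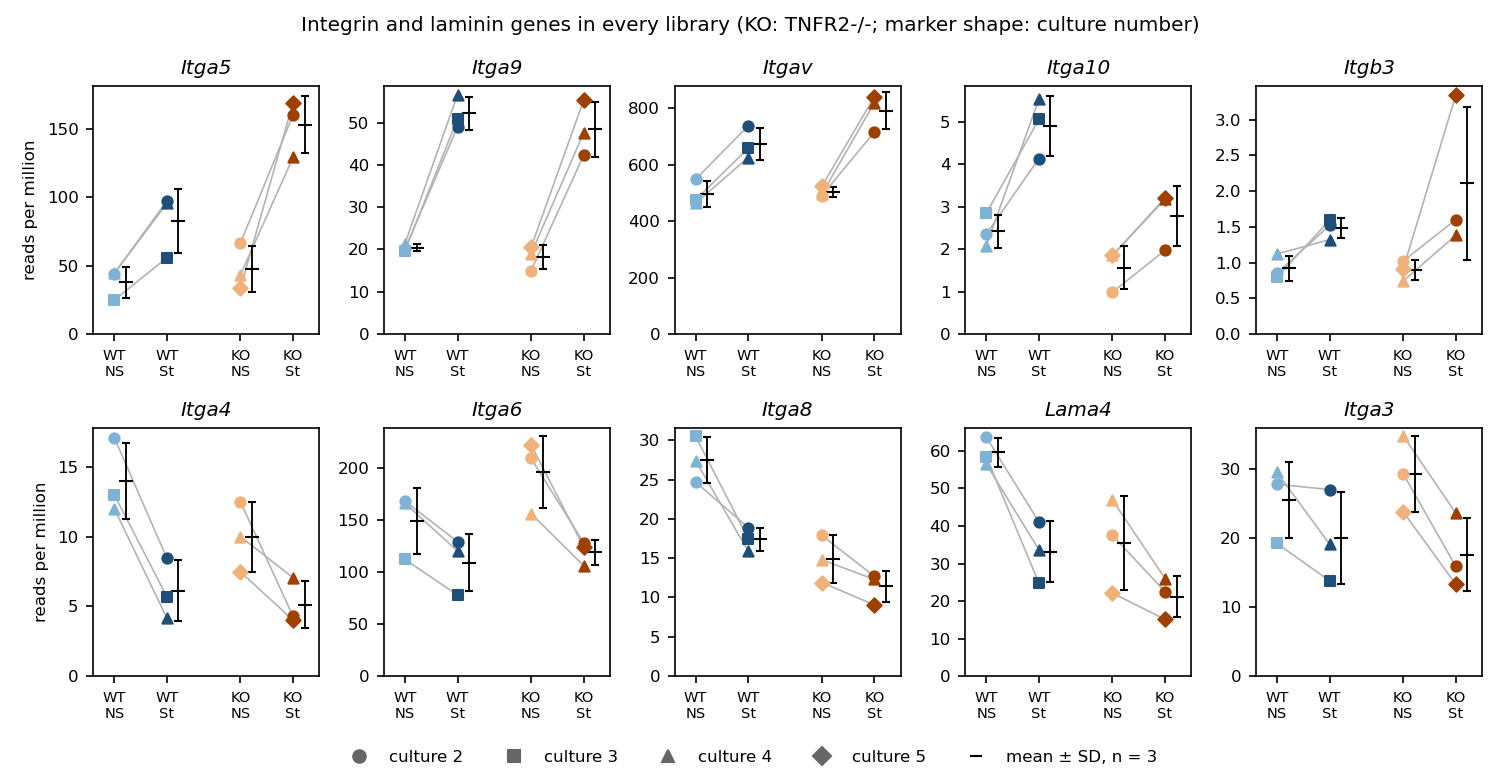
Level in rpm of 10 members in each library, NS and St, with marker shape for the culture number, gray lines joining the NS and St library of 1 culture, and black bars for mean ± SD (n = 3); KO stands for TNFR2-/-. The lines of *Itga9* are nearly parallel in the 6 cultures, while *Itgb3* is drawn up in TNFR2-/- St by culture 5.

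Of the laminin-binding α chains, *Itga6* (chr2:71745616-71858416) was the most abundant. It fell from 209, 156 and 222 rpm to 128, 106 and 124 rpm in TNFR2-/- cultures 2, 4 and 5 (−0.69 ± 0.21, limma adjusted p = 0.0378). In WT cultures 2, 3 and 4 it was at 168, 112 and 166 rpm in NS and 129, 77.8 and 120 rpm in St (−0.45 ± 0.21, limma adjusted p = 0.212 without pairing). Every culture of both genotypes was lower after stimulation, by 0.37 to 0.82 on the log2 scale, and the interaction was −0.24 ± 0.3 (limma adjusted p = 0.916). The call in TNFR2-/- was lost without TNFR2-/- NS 2, TNFR2-/- NS 5 or any of the TNFR2-/- St libraries (limma adjusted p = 0.0623 to 0.118), and with median-of-ratios scaling, voom and no filter on low values (adjusted p = 0.082, 0.0551 and 0.0705). *Itga3* was at 29.3, 34.8 and 23.8 rpm in TNFR2-/- NS and 15.9, 23.6 and 13.3 rpm in TNFR2-/- St. Its difference of −0.76 was not called in the fit without pairing (limma adjusted p = 0.0706) and was called with the culture as a replicate block (−0.76 ± 0.11, limma adjusted p = 0.00227). *Itga7* was at 54.8 to 104 rpm over all libraries and was not called (0.05 ± 0.23 in WT and 0.06 ± 0.23 in TNFR2-/-).

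Among the collagen-binding α chains, *Itga10* (chr3:96645584-96664519) was at 2.35, 2.84 and 2.08 rpm in WT NS and 4.13, 5.05 and 5.52 rpm in WT St cultures 2, 3 and 4. In TNFR2-/- cultures 2, 4 and 5 it was at 0.985, 1.85 and 1.85 rpm in NS and 1.97, 3.17 and 3.2 rpm in St. The rise in WT was 0.77 ± 0.18 (limma adjusted p = 0.0157), lost without WT NS 2, WT NS 4, WT St 3 or WT St 4 (limma adjusted p = 0.0504 to 0.0646). The difference in TNFR2-/- was 0.54 ± 0.18 (limma adjusted p = 0.0507) and was called with median-of-ratios scaling, with voom and without TNFR2-/- St 2. The interaction was −0.22 ± 0.26 (limma adjusted p = 0.902). The level corresponds to 29 to 163 reads per library. *Itga1*, at 9.19 to 20.9 rpm, and *Itga11*, at 0.303 to 0.714 rpm, were called in neither genotype. Exons of *Itga10* overlap *Gm42957* on the same strand, and those of *Itga4*, *Itga8* and *Itgav* overlap *Cerkl*, *E030013I19Rik* and *Gm13684* on the other strand, so that reads of these genes may not be fully separable.

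*Itgb1*, the partner of α4, α5, α6, α8, α9 and α10, was called in no comparison. It was at 1080, 1030 and 1090 rpm in WT NS, 1070, 995 and 999 rpm in WT St, 1040, 966 and 877 rpm in TNFR2-/- NS and 1010, 952 and 815 rpm in TNFR2-/- St. The differences were −0.06 ± 0.08 in WT and −0.05 ± 0.08 in TNFR2-/- (limma adjusted p = 0.719 and 0.7). Of the β chains that pair with αv, *Itgb8*, which with αv activates latent TGFβ, was at 407, 386 and 368 rpm in WT NS and 307, 296 and 271 rpm in WT St. Its difference of −0.41 ± 0.07 passed the p threshold in WT (limma adjusted p = 0.0024) but not the fold threshold. In TNFR2-/- it was at 346, 313 and 353 rpm in NS and 294, 319 and 286 rpm in St (−0.17 ± 0.07, limma adjusted p = 0.106). The interaction of 0.24 ± 0.1 did not pass (limma adjusted p = 0.599).

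*Itgb3*, the β chain of the αvβ3 receptor, was scarce, at 21 to 94 reads per library. In TNFR2-/- cultures 2, 4 and 5 it was at 1.02, 0.741 and 0.909 rpm in NS and 1.6, 1.38 and 3.34 rpm in St (0.8 ± 0.22, limma adjusted p = 0.0232). The St value of culture 5 was above the sum of the other St values. Without this library the log2 fold change was 0.5, below the fold threshold. The call was also lost without TNFR2-/- NS 4 or TNFR2-/- NS 5 (limma adjusted p = 0.0706 and 0.0504) and in a fit over the 6 libraries compared (limma adjusted p = 0.106), and the level is under 2 rpm in 11 of 12 libraries. In WT it was at 0.85, 0.795 and 1.12 rpm in NS and 1.52, 1.59 and 1.32 rpm in St (0.46 ± 0.22, limma adjusted p = 0.22). The interaction of 0.34 ± 0.32 did not pass (limma adjusted p = 0.857).

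*Itgb5* differed more between cultures than with treatment. It was at 125, 45.6 and 111 rpm in WT NS cultures 2, 3 and 4 and at 110, 44.7 and 101 rpm in the same cultures after stimulation. TNFR2-/- cultures 2, 4 and 5 had 152, 90.9 and 92.7 rpm in NS and 116, 70.7 and 68 rpm in St. It was called in neither genotype. *Itgb4*, the partner of α6 in hemidesmosomes, had at most 0.846 rpm, *Itgb7* at most 1.88 rpm and *Itgbl1* 2.1 to 3.37 rpm.

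No laminin chain was called in either genotype in the fit over all 12 libraries without pairing, with 1 of 10 tested chains at an unadjusted p under 0.05 in each genotype and none called by voom. Their median log2 fold change was −0.057 in WT and −0.148 in TNFR2-/-. That chain was *Lama4*, the α chain of laminins of vessels and other tissues. It was at 63.7, 58.5 and 56.5 rpm in WT NS and 41.1, 24.8 and 33.7 rpm in WT St cultures 2, 3 and 4. In TNFR2-/- cultures 2, 4 and 5 it was at 37.5, 46.9 and 22.1 rpm in NS and 22.5, 26 and 15.1 rpm in St. All 6 cultures were lower after stimulation, by 0.54 to 1.23 on the log2 scale. The 8 endothelial markers summed to 31.7 to 48.5 rpm in NS and 38 to 70.7 rpm in St libraries, and the mural and fibroblast markers to 111 to 889 and 77.8 to 806 rpm. The endothelial sum was carried by *Flt1* (20.9 to 60.3 rpm), while *Kdr* was lower after stimulation in all 6 cultures (4.34 to 7.61 rpm in NS and 2.24 to 4.7 rpm in St). The mural marker *Pdgfrb* was also lower in all 6 cultures (1.41 to 3.67 rpm in NS and 0.409 to 1.52 rpm in St). Other markers of these lists were higher after stimulation in all 6 cultures: *Flt1*, *Vwf* and *Cldn5* (endothelial) and *Kcnj8* and *Lum* (mural and fibroblast). *Kcnj8* and *Lum* were scarce, at 0 to 3 and 0 to 5 reads in NS and 11 to 36 and 16 to 24 reads in St libraries. The part of these cells in the *Lama4* difference was not tested. Without pairing, the difference was −0.86 ± 0.28 in WT (limma adjusted p = 0.0639) and −0.7 ± 0.28 in TNFR2-/- (limma adjusted p = 0.0932), and with the replicate block both were called (limma adjusted p = 0.00203 and 0.00345). The WT difference was also called in the fit over the 6 libraries compared and without TNFR2-/- NS 4, TNFR2-/- NS 5 or TNFR2-/- St 5. That in TNFR2-/- was also called without TNFR2-/- NS 5. In all, 5 of 21 alternatives passed the p threshold in WT and 2 of 21 in TNFR2-/-.

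Other laminin chains varied among cultures. *Lamb1* was at 41.7, 12.5 and 32.9 rpm in WT NS and 38.9, 12.5 and 29.2 rpm in WT St, with culture 3 lowest in both. *Lamc1* was at 637, 420 and 311 rpm in TNFR2-/- NS cultures 2, 4 and 5 and at 521, 372 and 264 rpm in St, in the same order. *Lama5* (40.5 to 120 rpm) and *Lamb2* (32.5 to 98.9 rpm) were the other abundant chains, and *Lama1*, *Lama2*, *Lama3* and *Lamb3* lay at 8.88 to 24.2, 2.51 to 10.2, 1.11 to 3.12 and 0.135 to 0.542 rpm.

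Between genotypes, limma called 1 of 31 tested members in NS cultures and none in St cultures. These comparisons share their libraries with the stimulation comparisons above. *Itga8* was lower in TNFR2-/- NS than in WT NS by −0.87 ± 0.16 (limma adjusted p = 0.0173), with all 3 TNFR2-/- NS libraries (11.9 to 17.9 rpm) below all 3 WT NS libraries (24.7 to 30.5 rpm). Over all genes, 1.62% were called higher and 1.28% lower in TNFR2-/- NS. The call was lost without WT NS 3, WT NS 4 or TNFR2-/- NS 5 (limma adjusted p = 0.0536 to 0.08), and in a fit over the 6 libraries compared. *Lama4* was at 22.1 to 46.9 rpm in TNFR2-/- NS and 56.5 to 63.7 rpm in WT NS, a difference of −0.81 ± 0.28 that was not called (limma adjusted p = 0.0866), but was called by voom (−0.87, adjusted p = 0.0448) and without TNFR2-/- NS 4 (−1.04, limma adjusted p = 0.0406). The astrocyte marker sum was also higher in TNFR2-/- NS (1290 to 2710 rpm) than in WT NS (848 to 996 rpm). Of the mural and fibroblast markers, *Col1a1* was lower in TNFR2-/- NS (3.63 to 7.84 rpm) than in WT NS (10.6 to 21.4 rpm), and the others overlapped. The part of such cells in these differences was not tested.

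In St cultures, where 1.18% of all genes were called higher and 0.614% lower, limma called 0 of 31 members, with 6 at an unadjusted p under 0.05, and voom called 0. *Itga8* was lower in TNFR2-/- St by −0.6 ± 0.16 (limma adjusted p = 0.0549) and *Itga10* by −0.64 ± 0.18 (limma adjusted p = 0.0641). *Itga5* was higher by 0.91 ± 0.31 (limma adjusted p = 0.0949). For each of these genes the 3 libraries of 1 genotype lay apart from the 3 of the other, but no difference passed the threshold. Among the other members read, the same held for *Itgae*, *Itgb4* and *Lamb2*. *Lamb2* was higher in TNFR2-/- by 0.54 ± 0.28 in St and 0.63 ± 0.28 in NS (limma adjusted p = 0.257 and 0.17). The share of all genes whose groups lay apart was not counted in any comparison. For the interaction of genotype and stimulation, limma and voom called 0 of 31 members, where limma called 0.00553% of all genes. In limma, 2 members were at an unadjusted p under 0.05 (*Itgae*, with 10 to 22 reads per library, and *Itgb8*). The share of all genes at an unadjusted p under 0.05 was not counted for the St comparison or the interaction.

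**Figure D4:**
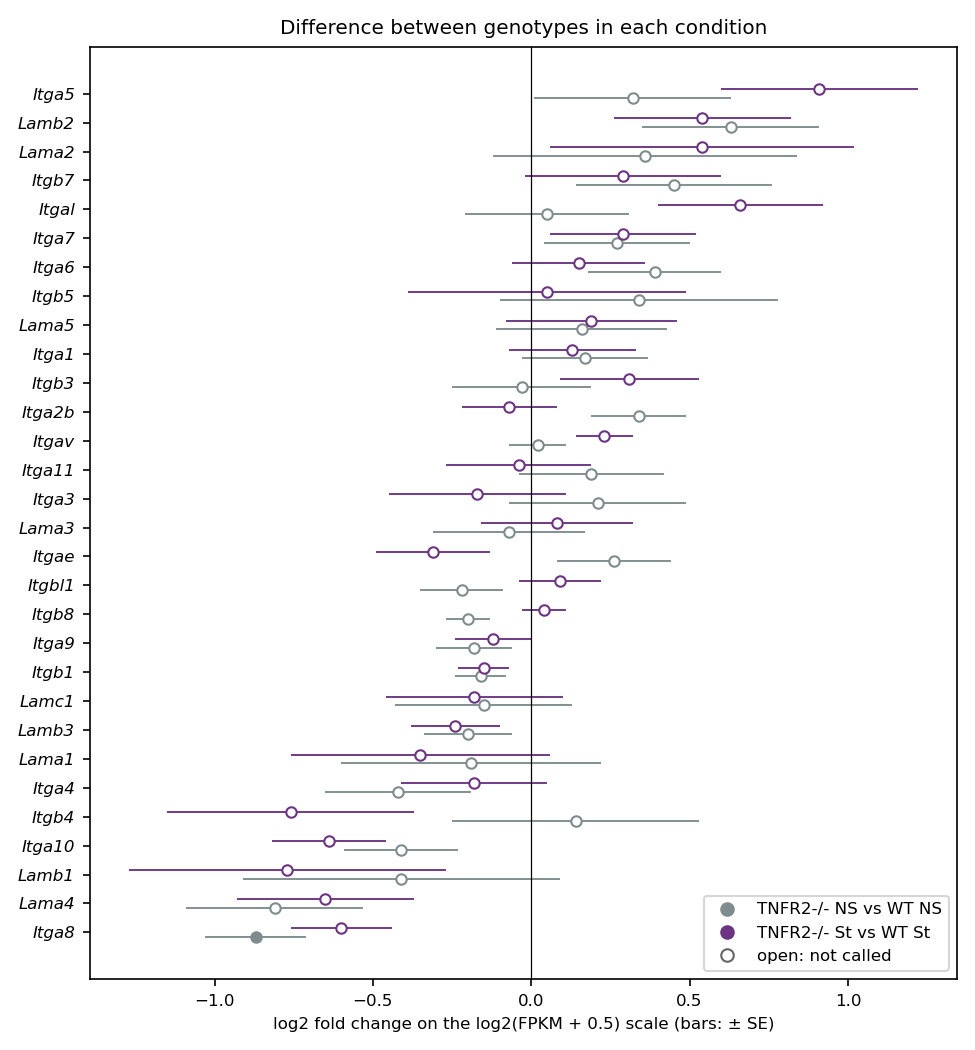
Log2 fold change of TNFR2-/- over WT for the tested members reported in NS (gray) and St (purple) cultures, on the log2(FPKM + 0.5) scale, with SE bars from limma; filled points were called. *Itga8* in NS cultures, at −0.87, is the only filled point.

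Of a list of integrin ligands, adaptors, other matrix receptors and basement membrane genes, 80 of 83 were tested. In WT, 6 rose and 3 fell with stimulation, a share of 7.5% and 3.75% beside 4.58% and 2.95% of all genes. In TNFR2-/- 7 rose and 5 fell, a share of 8.75% and 6.25% beside 5.41% and 4.68%. The median log2 fold change of the list was −0.02 in WT and −0.062 in TNFR2-/-, beside −0.055 and −0.109 over all genes. Ligands of leukocyte integrins were among the largest rises. *Icam1*, the ligand of leukocyte β2 integrins, was at 0.606 to 1.6 rpm in WT NS and 115 to 192 rpm in WT St (7.03 ± 0.44, limma adjusted p = 1.27e-06). In TNFR2-/- it was at 1.77 to 5.49 rpm in NS and 163 to 267 rpm in St (5.97 ± 0.44, limma adjusted p = 3.87e-06). *Vcam1*, the ligand of α4β1 and α9β1, went from 67.7 to 116 rpm in WT NS to 255 to 425 rpm in WT St (1.83 ± 0.21, limma adjusted p = 0.00014), and rose by 1.75 ± 0.21 in TNFR2-/- (limma adjusted p = 0.000145). *Madcam1*, the ligand of α4β7, had at most 1 read in any NS library and 1.39 to 3.37 rpm in St libraries, and was called in both genotypes.

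*Thbs1*, thrombospondin, rose by 2.34 ± 0.57 in TNFR2-/- (limma adjusted p = 0.0124), from 28.8 to 146 rpm in NS to 173 to 618 rpm in St. In WT it was at 80.3 to 152 rpm in NS and 290 to 436 rpm in St and was not called. The largest falls were in *Tns2*, a tensin that binds the β chain tail (−1.14 ± 0.3 in WT and −1.31 ± 0.3 in TNFR2-/-), and *Ntn4*, a netrin that binds laminin γ chains (−0.84 ± 0.15 and −0.98 ± 0.15). *Pkd1* also fell in WT (−0.72 ± 0.16) and the docking protein *Nedd9* in TNFR2-/- (−0.94 ± 0.27). Between genotypes, *Kank2* (0.81 ± 0.2), *Tns1* (0.79 ± 0.22) and *Sgcd* (−0.6 ± 0.16) were called in NS cultures and *Ltbp1* (0.7 ± 0.12) in St cultures. None of the list was called for the interaction, with 2 of 80 at an unadjusted p under 0.05 in limma.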

How the data were processed

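RNA was sequenced in 12 libraries, an NS and a St library from each of 6 cultures. Per the methods, the authors used Trim Galore for trimming, STAR for counts of read pairs against GRCm38 with an Ensembl annotation, and edgeR for FPKM. The methods name a BGISeq-500 platform and the labels Illumina protocols. The deposited FPKM are in an NS and a St table of 45792 entries, and 229 entries that share 99 symbols were left out. Whether counting used strand is not given in the sources used here. The number of bases by which FPKM were divided was unrelated to annotated exon length (Spearman 0.009 across 15753 genes, which are not independent), so FPKM of different genes were not compared. Whole reads behind each FPKM value were recovered (26635 of 26636 genes whole within 0.05 read), and gave rpm. Exon lengths, positions and overlaps came from GENCODE M21 on GRCm38, joined by symbol.

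Tests used limma 3.58.1 (R 4.3.3) with a trend, 4 group means and 12 libraries on log2(FPKM + 0.5). The 18081 genes whose mean reached 0.1 FPKM entered. P-values were adjusted over these by Benjamini-Hochberg. The pseudocount makes fold changes of low genes smaller, and thresholds in FPKM depend on the divisor. Nothing states that libraries of a group came from separate litters, so p-values measure the spread between these cultures. The fit was tested on simulated counts. The members and lists were chosen with earlier results of these data known. Members were given in every library when called in a comparison, or when they had a mean above 1 FPKM and were a partner chain of a called member. *Itga3*, *Lama4*, *Lamb1* and *Lamc1* were given so after their values were seen. Results for 1 member are left out. Listed ligands and adaptors were named by the 3 largest called fold changes in each direction. Python 3.11.15 with numpy 2.4.6, pandas 2.3.3 and matplotlib 3.10.9 was used.

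Pairing was checked on deviations from group means over 13554 genes. NS and St libraries of 1 genotype and 1 number correlated at 0.338 to 0.649 (6 pairs), and those of 1 genotype and unlike numbers at −0.455 to 0.088 (12 pairs). Like-numbered libraries of the 2 genotypes correlated at −0.055 to 0.204 (4 pairs). The numbers therefore pair libraries within a genotype, and the blocked value is given where it changes a call of a response to stimulation. Alternatives were other pseudocounts, filters, scaling, thresholds, voom on recovered reads, a fit over the 6 libraries compared, the block and leaving out each library. Apart from the block, none of them used the pairing, so calls reported as lost without a library are those of unpaired fits.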

Additional observations from a re-analysis of the deposited data

Results flagged for a closer look

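*Itgb4* was the only member with a mean of at least 1 FPKM whose response to stimulation had opposite signs in every WT and every TNFR2-/- culture. It was higher after stimulation in the WT cultures by 0.15 to 0.46 and lower in the TNFR2-/- cultures by 0.32 to 0.96 on the log2 scale. The interaction was −0.89 ± 0.55 and did not pass the test (limma adjusted p = 0.751). The gene had 4 to 25 reads per library, at which counting error alone is large.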

How the results depend on the processing

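Of the named results per gene, 337 kept their direction and side of the adjusted p threshold under an alternative, 46 moved above it, 16 moved below it and 0 changed direction. Beside these, 3 calls were lost on the fold threshold alone: *Itga8* in WT with median-of-ratios scaling and with voom, and *Itgb3* without TNFR2-/- St 5. The calls of *Itga9* in both genotypes and of *Itga5* and *Itgav* in TNFR2-/- held throughout. For TNFR2-/- NS vs WT NS the count of 1 became 0 in the fit over the 6 libraries compared, 2 (*Itga8* and *Lama4*) with voom on recovered reads and 0 without both libraries of WT culture 3, an alternative chosen after seeing the data. With each library left out in turn it ranged from 0 to 2. For WT St vs WT NS the count of 5 ranged from 1 to 6 with each library left out, with *Itga9* alone left without WT St 4, and was 2 (*Itga5* and *Itga9*) without WT culture 3. For TNFR2-/- St vs TNFR2-/- NS the count of 6 ranged from 3 to 6, with *Itga5*, *Itga9* and *Itgav* left without TNFR2-/- St 5. For TNFR2-/- St vs WT St the count of 0 was 1 (*Itga8*) with a filter of a mean of at least 1 FPKM, and 0 to 1 with each library left out. For the interaction it was 0 in each alternative run. The list of ligands, adaptors and other receptors had 18 genes called in any comparison and 31 by adjusted p alone. An expression threshold of 2 rpm, also added after seeing the data, removed *Itgb3* in TNFR2-/-. The causes of these changes were not tested.

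With the replicate block, 8 members were called in TNFR2-/- St vs TNFR2-/- NS, and no call of a stimulation response was lost in either genotype. The calls kept had a limma adjusted p of at most 0.0173 with the block. Among the members reported, the pairing by culture added *Lama4* in both genotypes and *Itga3* in TNFR2-/-, and changed no other such call. Replicate numbers do not pair cultures across genotypes. With the number as a block there, 2 members were called in TNFR2-/- NS vs WT NS (*Itga8* and *Lama4*) and 2 in TNFR2-/- St vs WT St (*Itga10* and *Lamb1*). *Itgb4* (4 to 25 reads), *Itgal* (0 to 5), *Lamb3* (4 to 16), *Itga11* (8 to 21), *Itgae* (10 to 22), *Itgb7* (8 to 56) and the members not tested (at most 27) are limited by depth.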

Other observations

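*Itga2*, a collagen receptor chain below the filter, was at 0.189 to 0.204 rpm in WT NS, 0.169 to 0.406 rpm in WT St, 0.236 to 0.404 rpm in TNFR2-/- NS and 0.375 to 0.959 rpm in TNFR2-/- St, the last being 11 to 27 reads per library. *Itgb7*, the partner of α4 and αE in leukocytes, was highest in TNFR2-/- culture 5, at 1.88 rpm in NS and 1.78 rpm in St, with 0.271 to 1.15 rpm in the other libraries. *Lama1*, the α chain of embryonic laminin, was lowest in TNFR2-/- culture 5 (9.83 rpm in NS and 8.88 rpm in St) and WT culture 3 (10.6 and 10.3 rpm), and at 13.4 to 24.2 rpm in the other libraries. These values were noted after they were seen and were not tested for a difference between cultures.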
